A study of Mus musculus with 203 samples.

Results

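Transcript levels of 7 leukocyte adhesion genes (Vcam1, Icam1, Icam2, Sele, Selp, Selplg and Ackr1) were measured by RNA-seq in mouse airways and parenchyma. The genes were taken by symbol from a table of 43346 gene identifiers, and all 7 were present and passed the filter on low counts. Female Balb/C mice, labelled as 18-20 weeks of age, received house dust mite (HDM) extract or phosphate-buffered saline (PBS) into the nose, and their lungs were separated into airways and parenchyma by blunt dissection. The libraries formed 20 groups. At 3 weeks there were 11 PBS and 10 HDM airway libraries and 12 PBS and 10 HDM parenchyma libraries. At 11 weeks there were 16 groups of 10, which crossed PBS or HDM with normal air (AIR) or cigarette smoke (CS), with or without dexamethasone (DEX) during week 11, in both tissues. Per the labels, some mice received HDM on 5 days a week for 3 weeks and others 3 times a week over weeks 4-11 (whether the latter mice had also received the first course is not clear from the labels), and smoke was given on 5 days a week for 8 weeks. The labels name no engineered allele and no pooling of animals, and they do not tie an airway library to the parenchyma library of the same mouse, so all libraries entered the tests as independent samples.

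These molecules act in the steps by which leukocytes leave the blood. Selectins on activated endothelium slow leukocytes by binding glycosylated ligands, integrins on the leukocytes then bind immunoglobulin-family adhesion molecules, and the cells cross the vessel wall. Inducible selectins are found mostly on venules, whereas constitutive adhesion molecules such as Icam2 are spread over the whole endothelium. Sele (E-selectin) and Selp (P-selectin, also stored in platelets) are the endothelial selectins, and Selplg (PSGL-1) is their main ligand on leukocytes. Vcam1 binds the integrin made of Itga4 and Itgb1, Icam1 and Icam2 bind the integrins that contain Itgb2, and Ackr1 (the Duffy antigen receptor, also made by erythroid cells) binds chemokines on venules without signalling.

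Library totals ran from 13003154 to 40240733, with a median of 28090684. The library with the lowest total, X32 from the parenchyma HDM.AIR.DEX group, stood apart: 33.7% of its counts fell on one gene, Gm42418, against a median of 0.268% over all libraries. Results of its group are given with and without it where they changed. The tissue labels held against markers: in PBS-exposed mice at 3 weeks all 4 smooth muscle and all 4 airway epithelium markers were higher in the airways, and all 4 alveolar type I and all 4 alveolar type II markers were lower. All 4 cardiac muscle markers were also higher in the airways, by a median of 5.33 on the log2 scale. Throughout, levels are counts relative to the library total (CPM) scaled by TMM factors over all libraries, log2FC values come from limma-voom, and a gene was called when its adjusted p-value (Benjamini-Hochberg over all genes tested) was under 0.05. In bulk tissue, fewer cells of a type and less RNA per cell cannot be told apart.

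Levels of the 7 genes differed widely. Per kilobase of exon, the parenchyma of PBS-exposed mice at 3 weeks held a median of 71.3 CPM per kb of Icam1 and 69.7 CPM per kb of Icam2. Selplg followed at 10.4 CPM per kb and Vcam1 at 7.25 CPM per kb. The selectins and Ackr1 were far lower, at 0.463 CPM per kb for Selp, 0.408 CPM per kb for Ackr1 and 0.0914 CPM per kb for Sele. They are called the venular genes below from their known sites, and the vessels that made them were not measured. In the airways of PBS-exposed mice the same order held, with 46.9 CPM per kb for Icam1, 39.5 CPM per kb for Icam2 and 0.367 CPM per kb for Sele. The immunoglobulin-family ligands of the Itgb2 integrins were thus the most abundant of the 7 in unexposed lung and E-selectin the least.

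The genes lie on 5 chromosomes of the mm10 genome. Sele (ENSMUSG00000026582.6, chr1:164048234-164057677, plus strand) and Selp (ENSMUSG00000026580.12, chr1:164115264-164150026, plus strand) are near neighbours on chromosome 1, where Ackr1 (ENSMUSG00000037872.5, chr1:173331886-173333750, minus strand) also lies. Vcam1 (ENSMUSG00000027962.10) spans chr3:116109949-116129688 on the minus strand, and Icam1 (ENSMUSG00000037405.7) spans chr9:21015985-21028817 on the plus strand. Icam2 (ENSMUSG00000001029.11) spans chr11:106377656-106388075 and Selplg (ENSMUSG00000048163.9) spans chr5:113818536-113832644, both on the minus strand. Counts cover whole genes, exons and untranslated regions together. Ackr1 shares 361 exon bases on the same strand with Cadm3, a neuronal and epithelial adhesion molecule, so reads there could be assigned to either gene. Genes on the opposite strand overlap exons of Vcam1 and Icam1 (Gm43109 and Gm47079, not analysed here) and of Selp, where Gm16587 and Gm16548 reached at most 6 and 10 counts in any library.

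The sequences upstream of Icam1, Sele and Selp are shown because the selectins moved together across groups, as described below, and Icam1 did not follow them. Each is the 250 bases before the RefSeq start (GRCm38.p6), 5′ to 3′ on the gene's strand, at chr9:21015690-21015939, chr1:164047984-164048233 and chr1:164115014-164115263. Capitals mark matches to GGAANTTCC, a form of the NF-κB motif, or TTCNNNGAA, the STAT motif.
Icam1: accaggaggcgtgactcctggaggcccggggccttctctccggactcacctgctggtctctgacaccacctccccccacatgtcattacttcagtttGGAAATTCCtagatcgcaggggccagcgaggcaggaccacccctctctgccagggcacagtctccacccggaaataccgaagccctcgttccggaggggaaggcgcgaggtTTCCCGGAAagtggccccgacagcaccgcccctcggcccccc
Sele: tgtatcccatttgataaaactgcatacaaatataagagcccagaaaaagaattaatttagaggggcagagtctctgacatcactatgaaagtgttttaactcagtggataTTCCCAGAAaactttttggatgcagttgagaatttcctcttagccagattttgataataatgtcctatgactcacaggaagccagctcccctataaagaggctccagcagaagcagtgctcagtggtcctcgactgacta
Selp: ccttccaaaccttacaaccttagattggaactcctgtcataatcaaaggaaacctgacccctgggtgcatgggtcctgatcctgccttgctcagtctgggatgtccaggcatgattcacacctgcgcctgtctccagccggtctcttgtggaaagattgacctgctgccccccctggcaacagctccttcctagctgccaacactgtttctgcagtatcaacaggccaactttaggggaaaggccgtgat
Both strands were searched for these motifs and for a further form of each, GGG and TTCC separated by 3 bases (NF-κB) and TTC and GAA separated by 4 bases (STAT6). The Icam1 window held GGAAATTCC and TTCCCGGAA and the Sele window held TTCCCAGAA, all on the plus strand. No match was found in the Selp window. Of 32851 promoters of the RefSeq table, 0.813% held GGAANTTCC, 7.02% TTCNNNGAA, 4.65% the further NF-κB form and 5.85% the STAT6 form. These are matches of letters and not measured binding sites. Other variants of the motifs were not searched, so a window without a match may still hold a site, also for NF-κB in Sele.

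**Figure D1:**
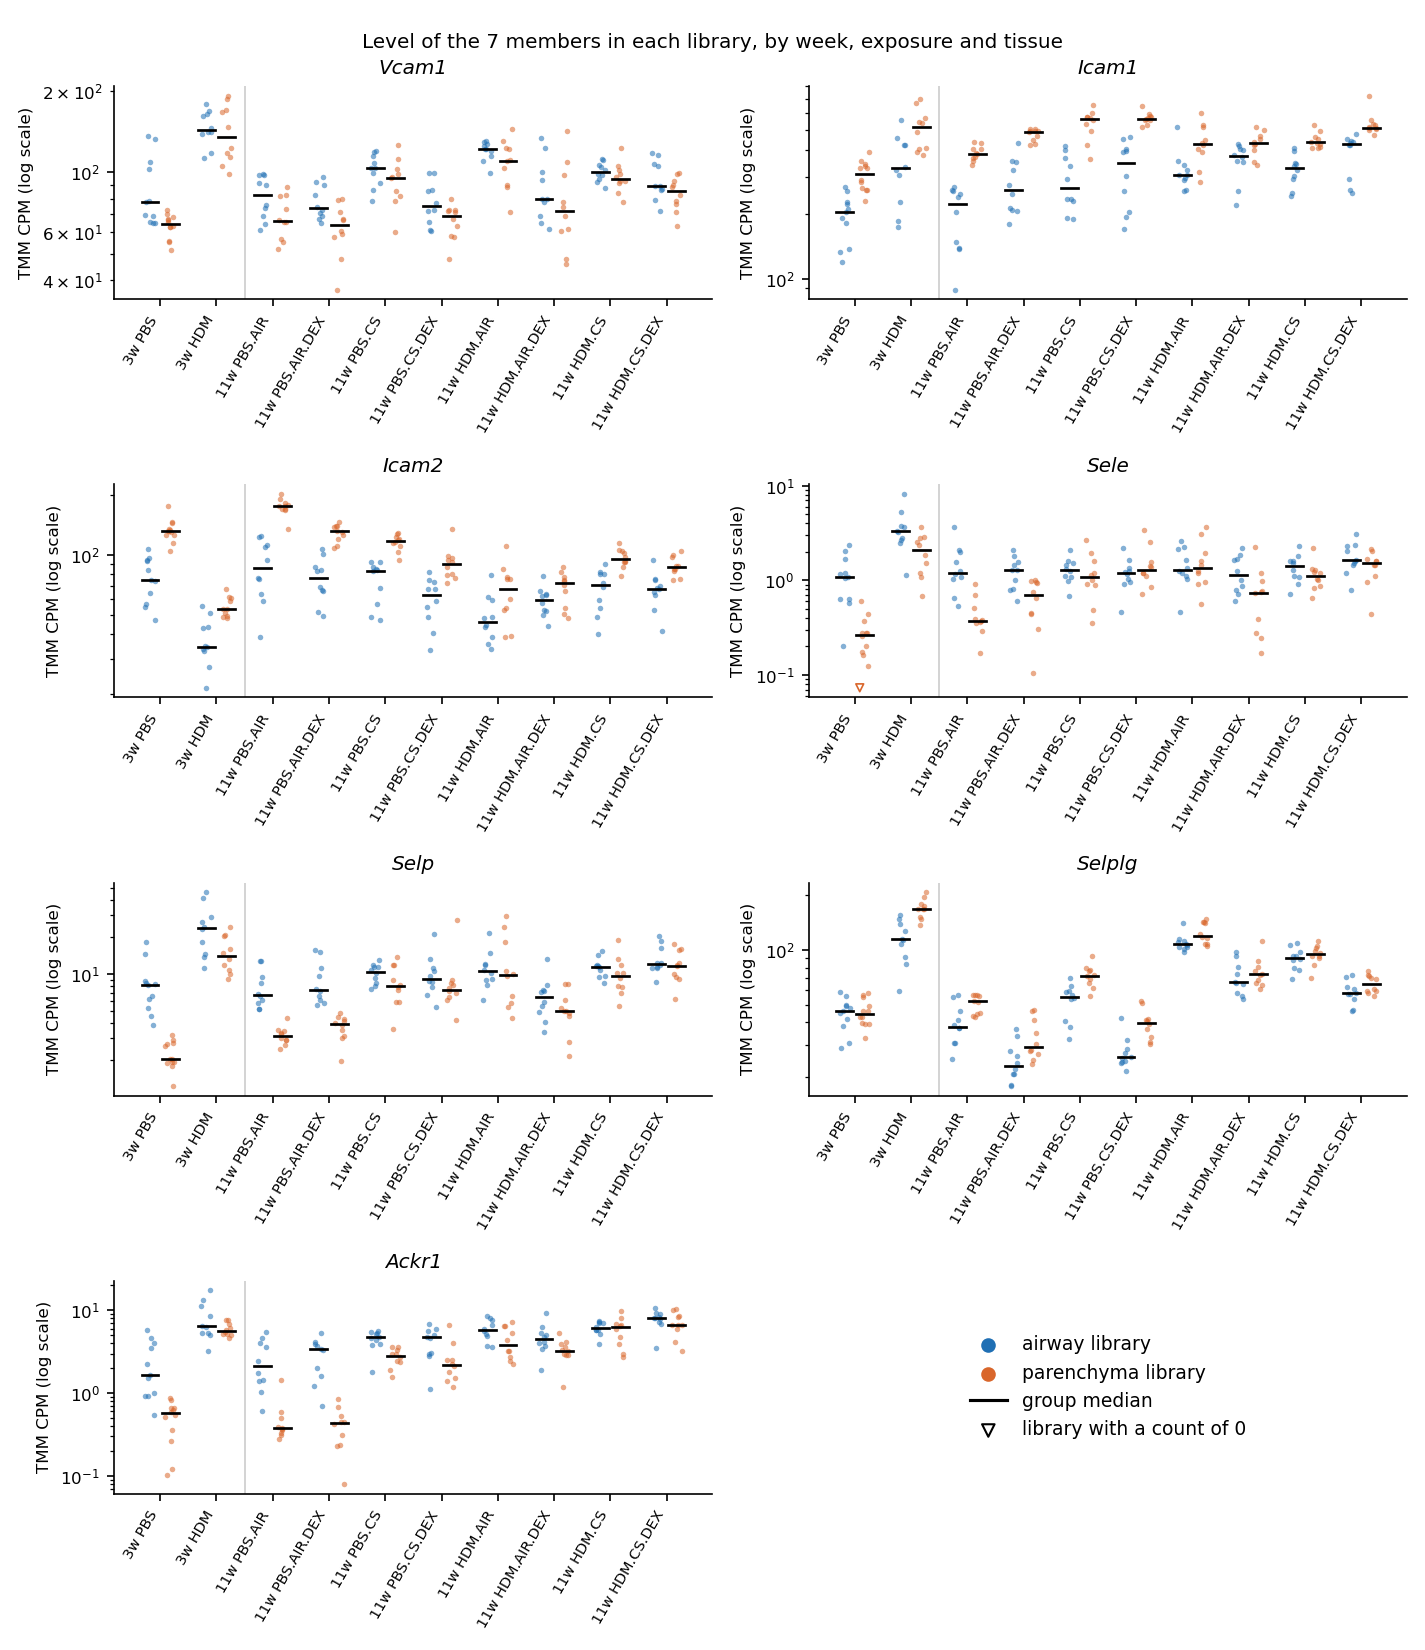
Level of each gene in each library (TMM CPM, log axis), by week and exposure on the x axis, with airway libraries in blue, parenchyma libraries in orange and a black bar at each group median (an open triangle marks the library with a Sele count of 0). Sele, Selp and Ackr1 were low in the parenchyma of PBS-exposed mice and high in HDM-exposed mice at 3 weeks, whereas Icam2 showed the opposite order.

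To ask how allergen exposure altered these genes, HDM-exposed mice were first compared with PBS controls at 3 weeks. The 3 venular genes rose most. In the parenchyma, Ackr1 rose from a median of 0.573 CPM (range 0.103 to 0.879, n = 12) to 5.63 CPM (4.60 to 7.70, n = 10), a log2FC of 3.56 ± 0.47 (SE; adjusted p-value 6.2e-09). Sele rose there from 0.266 CPM (0 to 0.601) to 2.11 CPM (0.688 to 3.61), and Selp from 2.05 CPM (1.23 to 3.18) to 14.0 CPM (9.07 to 23.9). Every HDM-exposed parenchyma library lay above every PBS library for all 3 genes. Their log2FC values were 2.89 ± 0.49 (adjusted p-value 1.4e-06) for Sele and 2.57 ± 0.35 (adjusted p-value 1.3e-08) for Selp. The Sele values rest on few reads, with 0 to 11 counts in the PBS libraries and 16 to 81 in the HDM libraries, and a count of 0 allows up to 3.

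In the airways the same 3 genes rose from a higher starting level and the groups overlapped. Sele went from 1.07 CPM (0.201 to 2.34, n = 11) to 3.29 CPM (1.13 to 8.15, n = 10), a log2FC of 1.64 ± 0.32 (adjusted p-value 1.9e-05). Selp went from 8.20 CPM (3.87 to 18.2) to 23.4 CPM (11.2 to 46.2), a log2FC of 1.47 ± 0.23 (adjusted p-value 4.1e-07). All 10 HDM-exposed airway libraries exceeded the PBS median for both selectins, and 9 of them exceeded every PBS library for Sele. Ackr1 rose from 1.65 CPM (0.548 to 5.78) to 6.39 CPM (3.25 to 17.4), a log2FC of 1.84 ± 0.30 (adjusted p-value 8.2e-07). Cadm3, which shares exon bases with Ackr1, moved the other way in the airways, with a log2FC of -1.09 ± 0.30 (adjusted p-value 0.0015), and its value in the parenchyma was -0.12 ± 0.54 (adjusted p-value 0.84).

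The inducible integrin ligand Vcam1, which stromal cells and macrophages can also make, rose in both tissues. In the parenchyma the 12 PBS libraries held a median of 64.3 CPM (51.6 to 72.4) and the 10 HDM libraries 135.3 CPM (99.05 to 191.99), with no overlap and a log2FC of 1.01 ± 0.12 (adjusted p-value 8e-10). Airway Vcam1 rose from 77.7 CPM (64.8 to 135.9) to 143.6 CPM (112.97 to 178.4), a log2FC of 0.72 ± 0.13 (adjusted p-value 2.4e-06). Icam1, which epithelium and leukocytes also make, rose less. Its medians were 204.3 CPM (119.1 to 269) and 329 CPM (highest 557) in the airways, a log2FC of 0.69 ± 0.16 (adjusted p-value 0.00024). In the parenchyma they were 311 CPM (231 to 393) and 513 CPM (381 to 696), a log2FC of 0.59 ± 0.16 (adjusted p-value 0.0013). Icam1 groups overlapped in both tissues, although 7 of 10 airway and 8 of 10 parenchyma HDM libraries lay above every PBS library.

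Icam2, the constitutive endothelial ligand, was the only one of the 7 that fell at 3 weeks. Parenchymal Icam2 dropped from 132.7 CPM (105.3 to 177.5) to 53.6 CPM (48.2 to 67.3), a log2FC of -1.40 ± 0.13 (adjusted p-value 4.8e-13), with no overlap. In the airways it dropped from 75.2 CPM (lowest 46.7) to 34.5 CPM (21.4 to 55.1), a log2FC of -1.10 ± 0.13 (adjusted p-value 1e-09), and 8 of 10 HDM libraries lay below every PBS library. Selplg, the leukocyte ligand of the selectins, rose without overlap in both tissues. Its parenchymal median went from 44.5 CPM (32.8 to 58.1) to 168.3 CPM (137.4 to 208), a log2FC of 1.79 ± 0.13 (adjusted p-value 4.5e-16). Its airway median went from 46.3 CPM (28.7 to 59.02) to 114.7 CPM (59.2 to 155.4), a log2FC of 1.27 ± 0.13 (adjusted p-value 1.3e-11).

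Thus 6 of the 7 genes rose and 1 fell in each tissue. Among all 17377 genes tested, 34.1% were called higher and 40.5% lower in the airways, and 33.4% higher and 44.3% lower in the parenchyma. The share of all genes whose groups did not overlap was not counted, here or in later comparisons. A lack of overlap thus describes the members only. The HDM effect differed between tissues for Ackr1 (airway less parenchyma -1.72 ± 0.56, adjusted p-value 0.029) and Selplg (-0.51 ± 0.18, adjusted p-value 0.045), where 10.8% of all genes had a higher and 6.43% a lower effect in the airways. Both of these calls were lost when libraries high in thymocyte or lymph node markers were left out, with adjusted p-values of 0.076 and 0.089. For the other 5 genes the difference did not pass, although Selp (-1.10 ± 0.42, adjusted p-value 0.063) passed with edgeR (0.016) and DESeq2 (0.0052). These differences compare ratios and not rises in CPM, and the venular genes started from lower PBS levels in the parenchyma.

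Markers of several cell types moved with these values. All 10 of 10 endothelial markers fell in both tissues, with a median log2FC of -1.09 in the airways and -1.37 in the parenchyma, where the median gene was at -0.07 and -0.13. Cdh5 (VE-cadherin) fell by 0.78 and 1.14 on the log2 scale. The summed endothelial markers ranged from 2135 to 3033 CPM in PBS parenchyma and from 862 to 1183 CPM in HDM parenchyma, and from 1011 to 1994 CPM and 528 to 961 CPM in the airways. In the airways all 4 cardiac muscle markers also fell, with a median of -2.93. Of the 4 venous markers, Bst1 rose by 0.88 in the airways and 1.01 in the parenchyma while the other 3 fell. When the mean of the endothelial markers was added to the model, the Icam2 log2FC was 0.11 (adjusted p-value 0.51) in the airways and 0.01 (adjusted p-value 0.95) in the parenchyma, and that of Icam1 was 1.84 (adjusted p-value 2.6e-08) and 1.95 (adjusted p-value 1.1e-07). In the same model Selp, Selplg and parenchymal Ackr1 still passed, at 2.13, 2.11 and 2.43 in the parenchyma, whereas Sele at 1.42 (adjusted p-value 0.10) did not. The rises of Vcam1 in both tissues and of airway Sele and Ackr1 did not pass in that model either.

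All 5 leukocyte markers rose in both tissues, with a median log2FC of 1.40 in the airways and 1.35 in the parenchyma, beside 1.27 and 1.79 for Selplg. Their summed level ranged from 737 to 944 CPM in PBS parenchyma and from 2125 to 2641 CPM in HDM parenchyma, and from 522 to 1097 CPM and 1108 to 2464 CPM in the airways. Because P-selectin is also stored in platelets, their markers were examined. Pf4 rose (1.24 in the airways, 2.30 in the parenchyma) but Ppbp, Itga2b and Gp9 fell in both. All 4 erythroid markers fell, with medians of -2.08 and -2.24, in the tissues where Ackr1 rose. High endothelial venule and lymph node markers rose for 4 of 5 genes in the airways and 3 of 5 in the parenchyma, led by Madcam1 at 3.07 and 3.73. The part of any of these cell types in the values of the 7 genes was not tested. In both tissues the summed endothelial markers of the PBS and HDM groups did not overlap. The model with those markers therefore cannot separate their part from that of exposure.

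The partners of these molecules were examined by list. Of the 8 integrin genes tested, 7 rose in each tissue, with a median log2FC of 1.64 in the airways and 1.57 in the parenchyma. Itgam rose by 2.75 ± 0.16 and 3.28 ± 0.17, Itgb2 by 2.44 ± 0.18 and 2.91 ± 0.18, and Itgal by 1.79 ± 0.14 and 1.85 ± 0.14, which together form the leukocyte receptors for Icam1 and Icam2. Itga4, the α chain of the Vcam1 receptor, rose by 1.49 ± 0.12 and 1.28 ± 0.12. Its β chain Itgb1, which most cells make, was at -0.10 ± 0.07 (adjusted p-value 0.16) and -0.10 ± 0.06 (adjusted p-value 0.13). Chemokines that Ackr1 binds rose for 6 of 7 genes in the airways and 7 of 7 in the parenchyma, led by Cxcl5 at 4.05 and 4.56. Of the 14 cytokines and receptors that induce adhesion molecules, 12 rose and 1 fell in the airways and 13 rose and 1 fell in the parenchyma, with Il13 at 4.93 and 5.06 and Tnf at 3.01 and 3.99.

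The glycosylation and junction lists differed in their counts. Of 14 selectin ligands and glycosylation genes, Selplg itself among them, 9 rose and 4 fell in each tissue, with medians of 0.44 and 0.49. Cd44, a further selectin ligand, rose by 1.31 in the airways, whereas the sialyltransferase gene St3gal6 fell by 0.93 and 1.24. Of 14 junction genes, 4 of which are also endothelial markers, 13 fell and only Cd47 rose (0.43 and 0.41). Cldn5, the endothelial tight junction claudin, fell by 1.52 in the airways and 1.79 in the parenchyma. Of the signalling and transcription genes, Nr2f2, a venous fate regulator and also one of the venous markers, fell most (by 1.68 and 2.09). Among 6 genes that anchor or shed adhesion molecules, the sheddase gene Adam17 rose by 1.33 in the airways, and Rdx, which encodes radixin, fell by 0.48 and 0.65.

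To ask where the genes are normally expressed, airways and parenchyma of PBS-exposed mice were compared. At 3 weeks, the venular genes were higher in the airways and the capillary-rich parenchyma held more Icam1 and Icam2. Selp was higher by 1.78 ± 0.36 on the log2 scale (adjusted p-value 5.8e-05), with no overlap, Sele by 2.08 ± 0.51 (adjusted p-value 0.00062) and Ackr1 by 2.05 ± 0.50 (adjusted p-value 0.00058). Vcam1 was higher by 0.38 ± 0.12 (adjusted p-value 0.0057). Icam1 was lower in the airways by -0.72 ± 0.15 (adjusted p-value 0.00012) and Icam2 by -0.88 ± 0.13 (adjusted p-value 2.3e-07). Selplg was at -0.08 ± 0.12 (adjusted p-value 0.60), a 95% interval of -0.32 to 0.16. Among all genes, 24.3% were called higher in the airways and 31.7% lower. Of the 10 endothelial markers, 8 were lower in the airways, with a median of -0.82, and with their mean in the model Icam1 was at -0.06 (adjusted p-value 0.83), Icam2 at -0.19 (adjusted p-value 0.15) and Vcam1 at 0.18 (adjusted p-value 0.47). Cadm3 was higher in the airways by 2.74 ± 0.41 (adjusted p-value 5.5e-07), in the same direction as Ackr1, and its part in the Ackr1 value was not tested. Of the 5 high endothelial venule and lymph node markers, only Madcam1 was called higher in the airways (1.6, adjusted p-value 0.045), and none lower. Their sum was 375 CPM in airway library X81 and 408 CPM in X161, against a group median of 34.3 CPM. X81 was the PBS airway library highest in Vcam1, Sele, Selp and Ackr1, and X161 was highest in none of them. The part of lymph node tissue in these values was not tested.

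The tissues were also compared in HDM-exposed mice. At 3 weeks Sele was still higher in the airways by 0.83 ± 0.30 (adjusted p-value 0.025) and Selp by 0.68 ± 0.21 (adjusted p-value 0.011). Ackr1 was at 0.33 ± 0.25 (adjusted p-value 0.31) and Vcam1 at 0.09 ± 0.13 (adjusted p-value 0.61). Of all genes, 19.5% were called higher and 16.7% lower in this comparison. At 11 weeks in air and PBS, Ackr1 was higher in the airways by 2.24 ± 0.45, Sele by 1.62 ± 0.36, Selp by 1.26 ± 0.29 and Vcam1 by 0.27 ± 0.12 (adjusted p-values 6.4e-06, 5.4e-05, 9.3e-05 and 0.048), while Icam1 (-1.03 ± 0.14), Icam2 (-1.07 ± 0.15) and Selplg (-0.36 ± 0.12) were lower, so that all 7 passed, beside 26.3% of genes higher and 30.1% lower. In HDM-exposed mice in air at 11 weeks only Icam1 (-0.41 ± 0.14, adjusted p-value 0.046) and Icam2 (-0.42 ± 0.15, adjusted p-value 0.047) passed, beside 7.95% of genes higher and 3.48% lower. Both calls were lost, for example, with only those groups fitted (adjusted p-values 0.068 and 0.20), and also without library X32 (0.058 for both). Over the 10 airway-parenchyma comparisons, Icam1 and Icam2 were each lower in the airways in 9, whereas Sele and Selp were each higher in 4, Ackr1 in 5 and Vcam1 in 3. Over all genes and these 10 comparisons together, 18.1% of results were called higher and 16.9% lower.

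**Figure D2:**
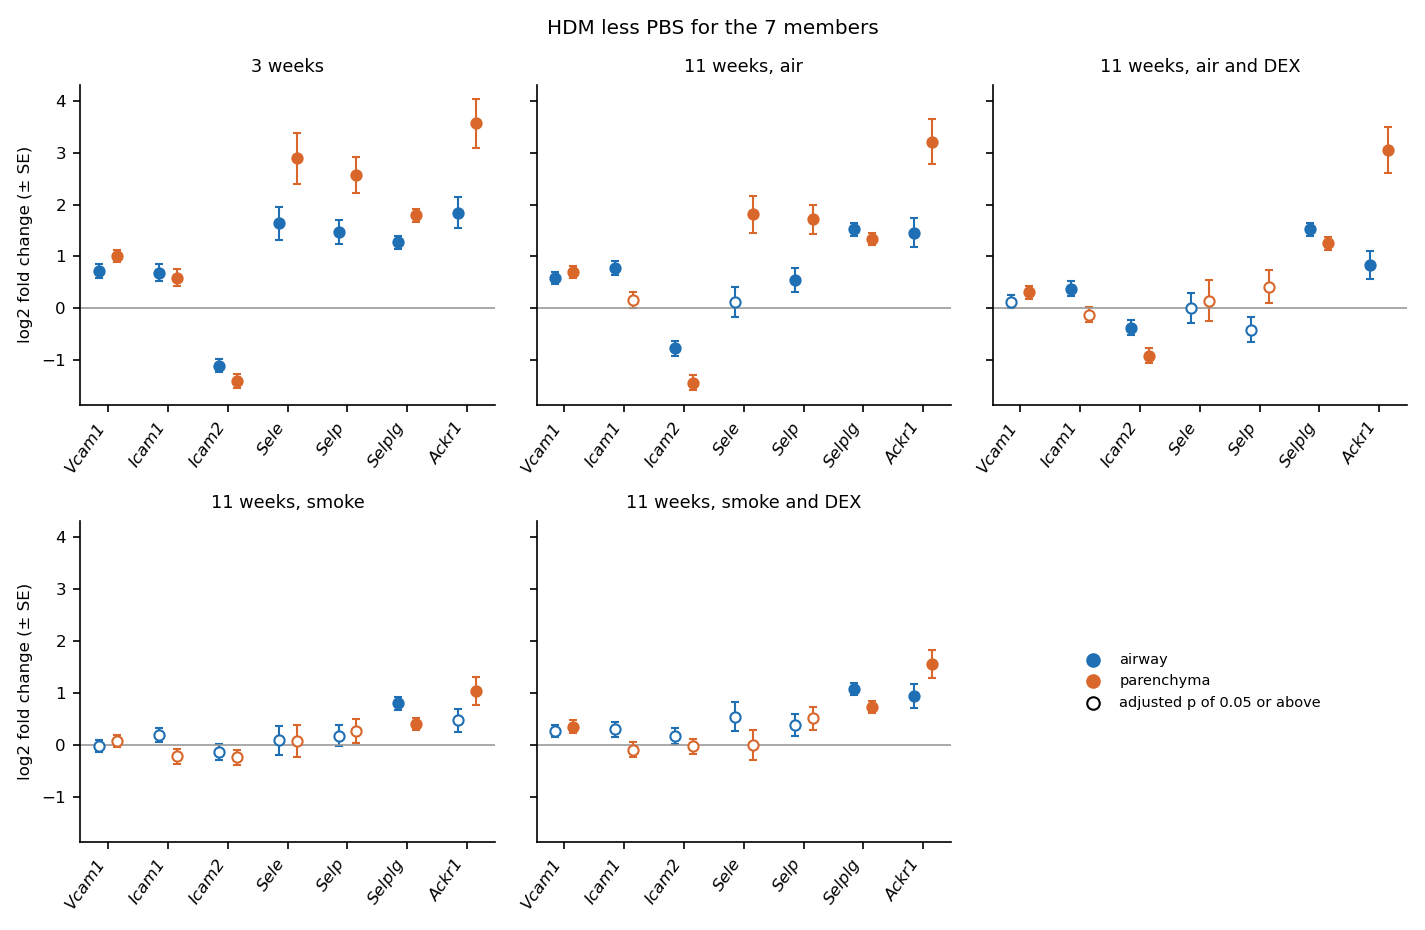
log2FC of HDM less PBS (± SE, y axis) for the 7 genes in airways (blue) and parenchyma (orange) at 3 weeks and in the 4 settings at 11 weeks, with open circles for an adjusted p-value of 0.05 or above. Values for Ackr1 in the parenchyma reached 3.56 at 3 weeks and 3.21 at 11 weeks in air, and under smoke without dexamethasone only Selplg in both tissues and Ackr1 in the parenchyma passed.

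At 11 weeks, HDM-exposed mice kept in air were compared with PBS controls in air. In the parenchyma, 5 of the 7 genes rose, beside 32.6% of 18250 genes called higher and 26.9% called lower. Ackr1 went from 0.375 CPM (0.276 to 1.44, n = 10) to 3.80 CPM (2.23 to 7.16, n = 10), a log2FC of 3.21 ± 0.43 (adjusted p-value 4.4e-11), with no overlap. Selp went from 3.15 CPM (2.47 to 4.37) to 9.85 CPM (4.40 to 29.6), a log2FC of 1.72 ± 0.28 (adjusted p-value 4.4e-08), also without overlap. Sele rose by 1.81 ± 0.36 (adjusted p-value 5.2e-06), Vcam1 by 0.70 ± 0.12 (adjusted p-value 1.6e-07) and Selplg by 1.34 ± 0.12 (adjusted p-value 1e-20). Icam2 fell by 1.43 on the log2 scale (SE 0.15, adjusted p-value 9e-16), from 177.8 CPM (135.02 to 203.5) to 67.6 CPM (38.7 to 111.7). Icam1 was at 0.16 ± 0.15 (adjusted p-value 0.35), a 95% interval of -0.13 to 0.44.

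In the airways at 11 weeks the pattern differed for the selectins. Sele held 1.204 CPM (0.533 to 3.62) in PBS and 1.297 CPM (0.468 to 2.58) in HDM, a log2FC of 0.12 ± 0.29 (adjusted p-value 0.75) with a 95% interval of -0.44 to 0.68. Selp rose by 0.55 ± 0.23 (adjusted p-value 0.027), a call that DESeq2 did not share (adjusted p-value 0.055). Vcam1 rose from 82.7 CPM (61.3 to 98.5) to 122.2 CPM (99.4 to 130.6) without overlap, a log2FC of 0.59 ± 0.12 (adjusted p-value 9.5e-06). Icam1 rose by 0.78 ± 0.14 (adjusted p-value 3.4e-07), Ackr1 by 1.46 ± 0.28 (adjusted p-value 1.6e-06) and Selplg by 1.52 ± 0.12 (adjusted p-value 1.9e-24). Icam2 fell by 0.77 (SE 0.15, adjusted p-value 2e-06). Thus 5 genes rose and 1 fell, beside 31.3% of genes called higher and 29.8% lower.

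The HDM effect at 11 weeks in air differed between tissues for 5 of the 7 genes. On the log2 scale it was smaller in the airways for Ackr1 (-1.75 ± 0.51, adjusted p-value 0.0059), Sele (-1.69 ± 0.46, adjusted p-value 0.0030) and Selp (-1.17 ± 0.36, adjusted p-value 0.0096). For Ackr1 this held for the ratio and not for CPM. Its median went from 2.10 to 5.80 CPM in the airways and from 0.375 to 3.80 CPM in the parenchyma. The HDM effect was larger or less negative in the airways for Icam1 (0.62 ± 0.20, adjusted p-value 0.013) and Icam2 (0.65 ± 0.21, adjusted p-value 0.013), calls that sample quality weights ended (adjusted p-values 0.11 and 0.095). Over all genes, 12.7% had a higher and 14.9% a lower effect in the airways. Relative to 3 weeks, the airway effect at 11 weeks was smaller for Sele (-1.59 ± 0.41, adjusted p-value 0.0014) and Selp (-0.98 ± 0.31, adjusted p-value 0.012), the latter lost with only those groups fitted (adjusted p-value 0.052), beside 14.5% of 18528 genes higher and 13.9% lower. In the parenchyma it was smaller for Selplg (-0.57 ± 0.17, adjusted p-value 0.0037), Icam1 (-0.56 ± 0.21, adjusted p-value 0.025) and Vcam1 (-0.44 ± 0.17, adjusted p-value 0.029), beside 21.5% higher and 20.9% lower. Week, dosing and any batch of either set of libraries cannot be told apart in this comparison.

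Cell type markers moved beside these values too. In the parenchyma all 10 endothelial markers fell, with a median of -1.29, and in the airways 8 fell and Emcn rose, with a median of -0.58. The 5 leukocyte markers all rose in both tissues, with medians of 1.56 in the airways and 1.42 in the parenchyma. Integrin genes rose for 8 of 9 genes in each tissue, and Itgb1 fell in the parenchyma by 0.46 (SE 0.07, adjusted p-value 1.9e-09). Chemokines bound by Ackr1 rose for 7 of 7 genes in the parenchyma and 6 of 7 in the airways, with medians of 2.49 and 1.07. Cadm3 fell by 1.90 in the airways (SE 0.26, adjusted p-value 1.7e-10) and rose by 0.93 in the parenchyma (SE 0.41, adjusted p-value 0.042), where Ackr1 rose by 3.21. Madcam1, made by high endothelial venules, rose by 4.17 in the parenchyma and 2.67 in the airways.

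The effect of cigarette smoke was examined next, in PBS-exposed mice, against the same PBS.AIR libraries that served as controls for HDM. In the parenchyma all 7 genes passed, 6 higher and Icam2 lower, beside 17.7% of genes called higher and 18.2% lower. Ackr1 rose from 0.375 CPM (0.276 to 1.44) in air to 2.83 CPM (1.58 to 3.61) in smoke, with no overlap and a log2FC of 2.57 ± 0.44 (adjusted p-value 7.3e-07). Selp rose from 3.15 CPM (2.47 to 4.37) to 7.92 CPM (3.58 to 13.8), a log2FC of 1.35 ± 0.29 (adjusted p-value 8.6e-05), and Sele from 0.374 CPM (0.172 to 0.923) to 1.07 CPM (0.350 to 2.67), a log2FC of 1.33 ± 0.37 (adjusted p-value 0.0027). The smoke-exposed libraries exceeded the air median in 10 of 10 for Selp and 9 of 10 for Sele. Smaller rises were measured for Selplg (0.53 ± 0.12, adjusted p-value 9.7e-05), Vcam1 (0.45 ± 0.12, adjusted p-value 0.0015) and Icam1 (0.45 ± 0.15, adjusted p-value 0.011). Icam2 fell by 0.59 (SE 0.15, adjusted p-value 0.00095), from 177.8 CPM (135.02 to 203.5) to 117.5 CPM (94.2 to 128.5), without overlap.

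In the airways, smoke raised 4 of the 7 genes in PBS-exposed mice, beside 7.66% of genes called higher and 6.03% lower. Ackr1 rose by 1.03 ± 0.28 (adjusted p-value 0.0057), Icam1 by 0.57 ± 0.14 (adjusted p-value 0.0012), Selplg by 0.40 ± 0.12 (adjusted p-value 0.0084) and Vcam1 by 0.33 ± 0.12 (adjusted p-value 0.047). The Vcam1 call was lost with edgeR (adjusted p-value 0.056) and DESeq2 (adjusted p-value 0.055), and those of Icam1 and Selplg when only the groups compared were fitted (adjusted p-values 0.097 and 0.11). Sele was at -0.03 ± 0.29 (adjusted p-value 0.96) and Selp at 0.41 ± 0.23 (adjusted p-value 0.24). The selectins therefore passed in the parenchyma and not in the airways, and the difference of the smoke effect between tissues was not tested. Of the endothelial markers, 8 of 10 fell with smoke in the parenchyma (median -0.40) and their median was -0.06 in the airways. Leukocyte markers rose for 2 of 5 genes in either tissue, and the 4 macrophage markers rose in both, with medians of 1.61 in the parenchyma and 1.08 in the airways.

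Smoke was also compared with air in HDM-exposed mice. Icam2 was higher under smoke, by 0.59 ± 0.15 in the parenchyma (adjusted p-value 0.0011) and 0.44 ± 0.15 in the airways (adjusted p-value 0.026), and parenchymal Selplg was lower by -0.42 ± 0.12 (adjusted p-value 0.0040). The airway Icam2 call was lost with only those groups fitted (adjusted p-value 0.054). No other member passed, beside 10.0% of genes higher and 14.1% lower in the parenchyma and 6.07% and 10.1% in the airways. Of the endothelial markers, 9 of 10 were higher under smoke in the parenchyma of these mice, with a median of 0.58. With dexamethasone as well, smoke raised Selp in the parenchyma (1.22 ± 0.26, adjusted p-value 0.00051) and airways (1.03 ± 0.23, adjusted p-value 0.0023), Ackr1 in both (1.05 ± 0.26 and 0.74 ± 0.23, adjusted p-values 0.0039 and 0.034) and Sele in the parenchyma (1.08 ± 0.34, adjusted p-value 0.029). The airway Ackr1 call was lost with edgeR (adjusted p-value 0.10) and the Sele call with edgeR (adjusted p-value 0.052), and without library X32 the parenchymal log2FC values were 1.23 for Selp, 1.06 for Ackr1 and 1.06 for Sele (adjusted p-value 0.039). These stand beside 4.11% of genes higher and 5.58% lower in the parenchyma and 1.73% and 3.23% in the airways. In PBS-exposed mice given dexamethasone, smoke raised parenchymal Ackr1 (2.55 ± 0.46), Sele (1.25 ± 0.34) and Selp (1.13 ± 0.28) and lowered Icam2 (-0.53 ± 0.15), with adjusted p-values of 8.2e-06, 0.0037, 0.0013 and 0.0065, beside 9.32% of genes higher and 8.93% lower. In the airways of those mice no member passed by limma-voom (unadjusted p-value under 0.05 for 2 of 7) or by edgeR or DESeq2, beside 2.26% higher and 1.67% lower.

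The call for parenchymal Icam1 in that comparison depended on the samples fitted. The 10 smoke libraries held 515 to 644 CPM and the 10 air libraries 425 to 506 CPM, so the groups did not overlap, but the log2FC of 0.25 ± 0.15 did not pass in the fit of all 16 groups (adjusted p-value 0.25). Fitted on those groups alone it was 0.26 (adjusted p-value 0.00076). In PBS-exposed mice in air, airway Icam1 ranged from 88.9 to 269 CPM and parenchymal Icam1 from 340 to 436 CPM.

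**Figure D3:**
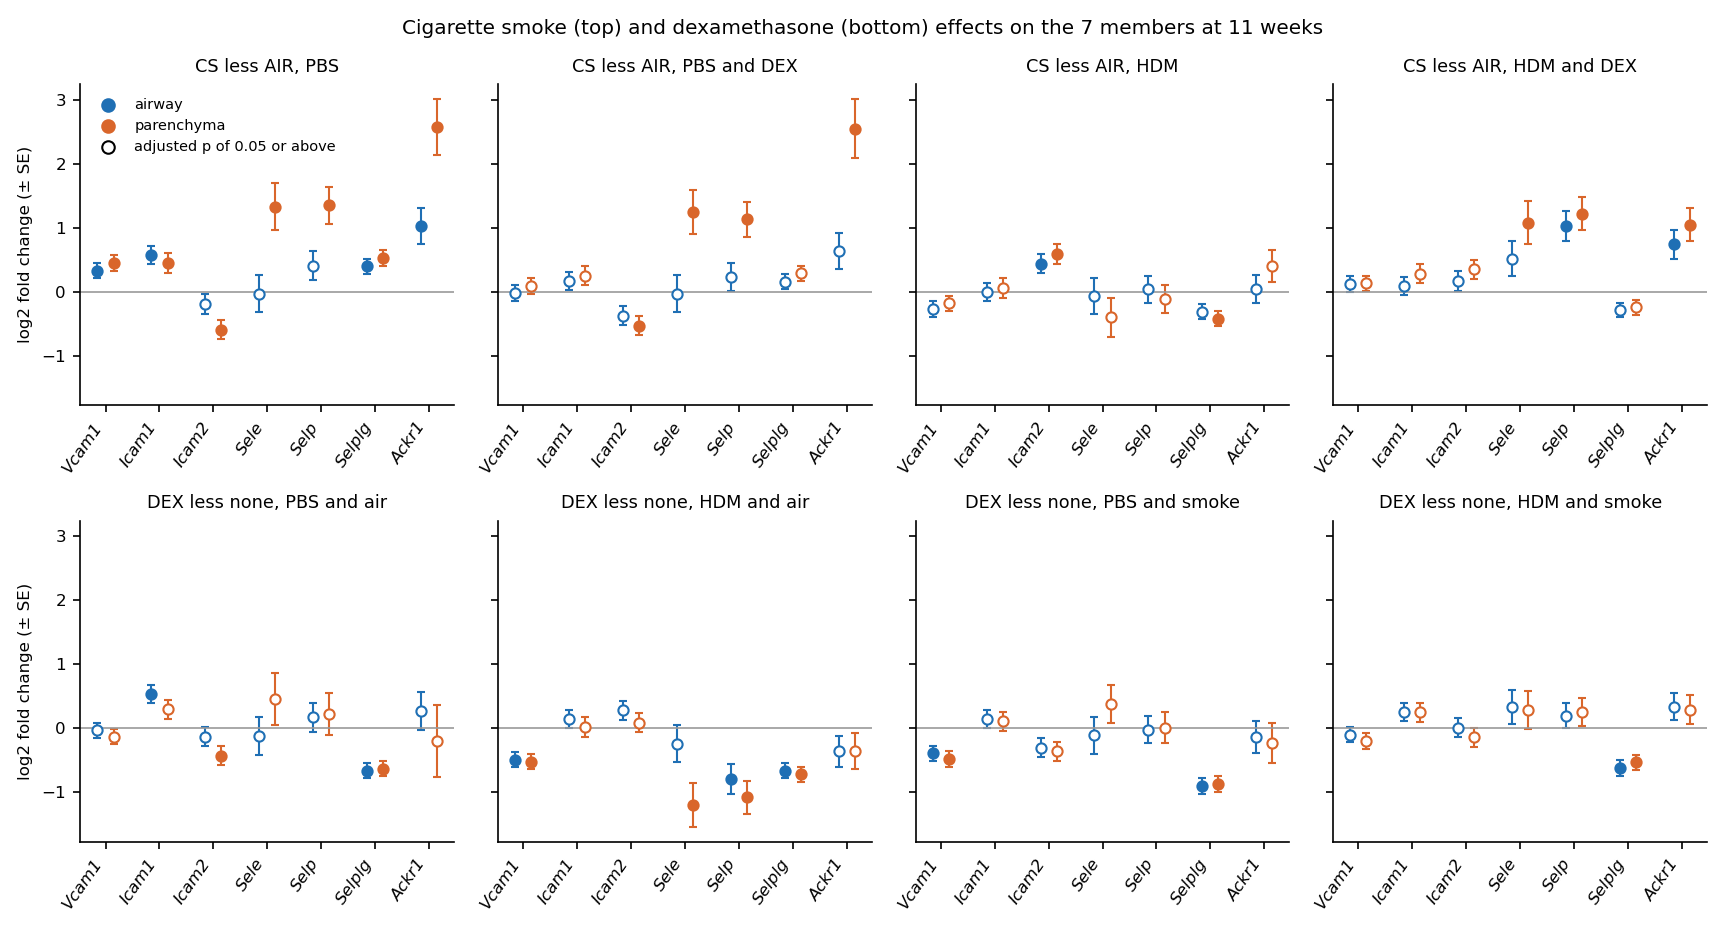
log2FC (± SE, y axis) of cigarette smoke (top row) and dexamethasone (bottom row) for the 7 genes at 11 weeks in airways (blue) and parenchyma (orange), within each of the other exposures, with open circles for an adjusted p-value of 0.05 or above. Smoke raised Ackr1, Sele and Selp in the parenchyma of PBS-exposed mice, and Selplg lay below 0 with dexamethasone in all 8 comparisons.

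The HDM effect was then compared between air and smoke. Under smoke, HDM raised only Ackr1 (1.03 ± 0.27, adjusted p-value 0.0044) and Selplg (0.40 ± 0.12, adjusted p-value 0.012) among the 7 in the parenchyma, beside 7.52% of genes called higher and 2.42% lower. In the airways under smoke it raised only Selplg (0.80 ± 0.12, adjusted p-value 4.8e-09), beside 17.5% higher and 15.6% lower. The difference itself was tested as an interaction. In the parenchyma the log2FC of HDM under smoke was smaller than in air for Ackr1 (-2.18 ± 0.51, adjusted p-value 0.00023), Sele (-1.73 ± 0.48, adjusted p-value 0.0020), Selp (-1.45 ± 0.37, adjusted p-value 0.00068), Selplg (-0.94 ± 0.16, adjusted p-value 8.9e-07) and Vcam1 (-0.63 ± 0.17, adjusted p-value 0.0016). For Icam2, which fell with HDM in air, the difference was 1.18 ± 0.21 (adjusted p-value 1.7e-06), and for Icam1 it was -0.38 ± 0.21 (adjusted p-value 0.14). Over all genes 17.3% had a positive and 18.7% a negative difference.

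In the airways the difference passed for 5 genes, beside 7.72% of genes positive and 11.4% negative. The values were -0.99 ± 0.36 for Ackr1, -0.72 ± 0.16 for Selplg, -0.60 ± 0.17 for Vcam1, -0.59 ± 0.20 for Icam1 and 0.63 ± 0.21 for Icam2 (adjusted p-values 0.040, 0.00065, 0.0062, 0.025 and 0.020). The Ackr1 call was lost with edgeR (adjusted p-value 0.15) and DESeq2 (adjusted p-value 0.16), and those of Icam1 and Icam2 with only those groups fitted (adjusted p-values 0.11 and 0.099). The levels behind the parenchymal differences were as follows. Selp was at 9.85 CPM with HDM alone, 7.92 CPM with smoke alone and 9.70 CPM (5.49 to 18.8) with both, against 3.15 CPM with neither. Parenchymal Ackr1 was at 3.80 CPM, 2.83 CPM and 6.27 CPM (2.72 to 9.93) in the same order, against 0.375 CPM. A smaller log2FC is a smaller ratio, and the Ackr1 medians rose with HDM by a similar amount of CPM in air and under smoke. Parenchymal Icam2 was at 67.6 CPM, 117.5 CPM and 95.3 CPM (78.5 to 115.4), against 177.8 CPM. All 10 endothelial markers had a positive difference in the parenchyma, with a median of 0.98, and all 5 leukocyte markers a negative one, with a median of -1.14.

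Dexamethasone, a glucocorticoid, was given to separate groups during week 11. Selplg was lower with dexamethasone in all 8 comparisons, by -0.53 to -0.90 on the log2 scale. In HDM-exposed mice in air, airway Selplg went from 107.7 CPM (97.7 to 140.5) to 66.3 CPM (53.7 to 97.4), with no overlap and a log2FC of -0.66 ± 0.12 (adjusted p-value 1.7e-06). Parenchymal Selplg went from 119.8 CPM (105.7 to 147.9) to 73.5 CPM (61.2 to 111.9), a log2FC of -0.72 ± 0.12 (adjusted p-value 2.7e-07). Over the 8 comparisons, 2 to 5 of the 5 leukocyte markers were lower (1 was higher in the parenchyma of PBS mice in air), and in the parenchyma of HDM-exposed mice in air these were 3 of 5, with a median of -0.59.

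In the same HDM-exposed mice in air, dexamethasone lowered Vcam1 and Selp in both tissues and Sele in the parenchyma. Parenchymal Selp went from 9.85 CPM (4.40 to 29.6) to 4.99 CPM (2.15 to 8.35), a log2FC of -1.08 ± 0.26 (adjusted p-value 0.00056), and Sele from 1.35 CPM (0.557 to 3.68) to 0.739 CPM (0.171 to 2.23), a log2FC of -1.20 ± 0.34 (adjusted p-value 0.0037). Vcam1 fell there from 110.6 CPM (71.65 to 144.1) to 71.8 CPM (46.03 to 142.1), a log2FC of -0.52 ± 0.12 (adjusted p-value 0.00034), and 9 of 10 treated libraries lay below the untreated median. In the airways Vcam1 fell by 0.49 (SE 0.12, adjusted p-value 0.00074) and Selp by 0.79 (SE 0.24, adjusted p-value 0.0062). So 4 genes were lower in the parenchyma and 3 in the airways, beside 16.2% and 16.0% of genes called lower and 12.2% and 12.5% called higher. Library X32 belongs to the treated parenchyma group, and without it the log2FC values were -0.47 for Vcam1, -1.18 for Sele, -1.09 for Selp and -0.71 for Selplg (adjusted p-values 0.0014, 0.0053, 0.00071 and 7.6e-07). Ackr1 was at -0.36 ± 0.28 (adjusted p-value 0.36, 95% interval -0.91 to 0.18) in the parenchyma. It did not pass in any of the 8 dexamethasone comparisons by limma-voom, edgeR or DESeq2 (unadjusted p-value under 0.05 in 0 of 8). All 4 erythroid markers fell in each of the 8, with a median of -2.76 in the parenchyma of HDM-exposed mice in air. Their part in the Ackr1 values was not tested.

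Whether dexamethasone altered the HDM effect was tested as an interaction. The HDM effect in parenchyma in air was smaller with dexamethasone than without for Sele (-1.66 ± 0.53, adjusted p-value 0.024) and Selp (-1.30 ± 0.42, adjusted p-value 0.025), beside 6.02% of genes with a positive and 6.38% with a negative difference. Without library X32 these were -1.63 (adjusted p-value 0.030) and -1.31 (adjusted p-value 0.028), and the Selp call was lost with a filter of 10 CPM (adjusted p-value 0.090). No member passed in the airways by limma-voom, where Selp was at -0.96 ± 0.33 (adjusted p-value 0.072), 1.11% of genes were positive and 3.52% negative, and 3 of 7 members had an unadjusted p-value under 0.05. None passed there with edgeR or DESeq2 either, but with sample quality weights Icam2 (0.71), Ackr1 (-1.17) and Selp did (adjusted p-values 0.0063, 0.047 and 0.036). In mice given both allergen and dexamethasone in air, parenchymal Ackr1 (3.05 ± 0.45), Selplg (1.25 ± 0.12) and Vcam1 (0.31 ± 0.12) stayed above PBS with dexamethasone and Icam2 below it (-0.91 ± 0.15), with adjusted p-values of 5.2e-09, 5.4e-18, 0.028 and 1.3e-07, beside 22.6% of genes higher and 19.6% lower. Without library X32 these 4 values were 3.04, 1.27, 0.36 and -0.87, and the Vcam1 call was lost with only those groups fitted (adjusted p-value 0.18). In the airways of those mice Selplg (1.52 ± 0.12), Ackr1 (0.83 ± 0.27) and Icam1 (0.38 ± 0.14) were higher and Icam2 lower (-0.37 ± 0.15), with adjusted p-values of 1.8e-23, 0.0072, 0.019 and 0.028 (0.093 for Ackr1 with sample quality weights), beside 23.6% higher and 26.1% lower. With smoke and dexamethasone, HDM raised Ackr1, Selplg and Vcam1 in the parenchyma (1.55 ± 0.27, 0.73 ± 0.12 and 0.35 ± 0.12) and Ackr1 and Selplg in the airways (0.94 ± 0.23 and 1.08 ± 0.12), beside 12.9% and 15.9% of genes called higher and 9.09% and 17.7% lower.

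The other dexamethasone comparisons were as follows. In smoke-exposed PBS mice it lowered Vcam1 in both tissues, by -0.48 ± 0.12 in the parenchyma (adjusted p-value 0.0016) and -0.39 ± 0.12 in the airways (adjusted p-value 0.019), and otherwise only Selplg, beside 9.49% and 6.60% of genes lower and 7.39% and 4.68% higher. In PBS mice in air it raised airway Icam1 (0.54 ± 0.14, adjusted p-value 0.0025) and lowered parenchymal Icam2 (-0.43 ± 0.15, adjusted p-value 0.031), beside 8.03% of genes higher and 6.85% lower in the airways and 10.6% and 12.0% in the parenchyma. The Icam1 call was lost when only those groups were fitted (adjusted p-value 0.11). In HDM mice under smoke Selplg alone passed among the 7, at -0.62 ± 0.12 in the airways and -0.53 ± 0.12 in the parenchyma, beside 7.05% and 5.40% of genes lower and 2.25% and 2.46% higher. Selp in those parenchyma groups had medians of 9.70 CPM (5.49 to 18.8) without and 11.7 CPM (6.29 to 17.6) with dexamethasone, a log2FC of 0.25 ± 0.22 with a 95% interval of -0.18 to 0.67. The fall of the selectins with dexamethasone was thus measured in HDM-exposed mice in air and not in those under smoke, and that difference was not tested.

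Across the 20 groups the order of medians was described without a test. Vcam1, Sele and Selp were highest in the airways of HDM-exposed mice at 3 weeks (143.6, 3.29 and 23.4 CPM) and next in the parenchyma of those mice. Ackr1 was highest in the airways of HDM.CS.DEX mice, at 8.04 CPM, and lowest in the parenchyma of PBS.AIR mice, at 0.375 CPM. The highest median was 21.4 times the lowest for Ackr1, 12.4 times for Sele, 11.46 times for Selp, 7.32 times for Selplg, 5.15 times for Icam2, 2.76 times for Icam1 and 2.25 times for Vcam1. Each of the 19 neighbouring pairs of groups in this order overlapped for every member.

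**Figure D4:**
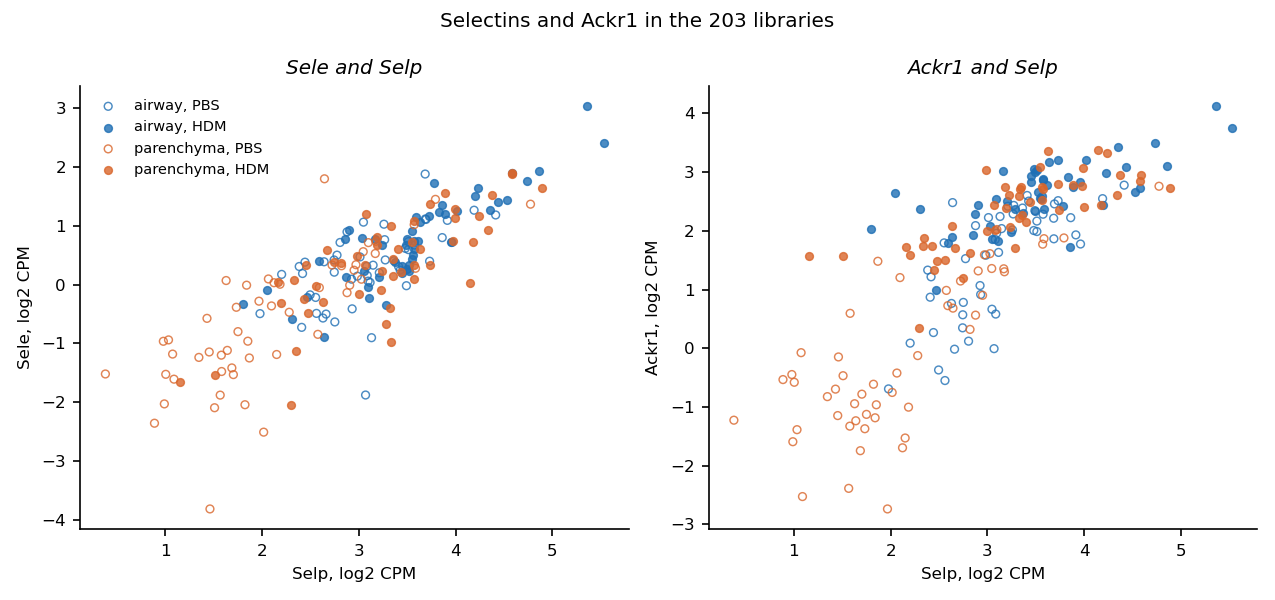
Sele (left) and Ackr1 (right) against Selp in all libraries (log2 CPM on both axes), with airway libraries in blue, parenchyma libraries in orange, and filled points for HDM-exposed mice. Sele followed Selp with a Pearson r of 0.966 over the 20 group means, and Ackr1 followed Selp with an r of 0.892.

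Likeness between genes was measured as the Pearson r of log2 CPM over the 20 group means, which share their libraries' dissection and depth, and over all libraries after each group's mean was subtracted. Libraries of a group can also differ in their share of airway and parenchyma. Within the airway PBS.AIR group at 11 weeks, the alveolar type I marker Ager ran from 414 to 1761 CPM. The part of dissection in the r values, also within groups, was not tested. Sele and Selp were each other's closest gene over the group means, with an r of 0.966, and Sele followed Selp within groups with an r of 0.599. Ackr1 and Selp had an r of 0.892 over group means and 0.580 within groups. Vcam1 and Selp had 0.818 and 0.437. Icam1 stood apart from the selectins, with an r of 0.017 over group means and 0.103 within groups against Selp. Icam2 ran opposite to Selp over the group means (-0.777) and within groups stood at -0.138.

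The genes most like the other members were found by the same measure. Icam2 was closest to Klhl5 (0.981) and Ripply3 (0.979) over group means, and to Ripply3 (0.879) and the endothelial junction gene Esam (0.872) within groups. It followed the mean of the endothelial markers with an r of 0.939 over group means and 0.895 within groups. Icam1 followed that mean within groups (0.679) but not over group means (0.264), and its closest genes within groups were Slc44a2 (0.905) and Msn (0.895), which encodes moesin, a linker of adhesion molecules to actin. Selplg was closest to Myo1g (0.990) and Ubash3b (0.987) over group means and to Arhgap9 (0.850) and Hcls1 (0.813) within groups, and it followed the leukocyte markers at 0.979 and 0.816. Vcam1 was closest to Dctd (0.959) and the chemokine gene Ccl22 (0.956) over group means, and to the complement genes C1s1 (0.766) and C1s2 (0.714) within groups.

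The closest genes of the venular members, and of Icam1 over group means, were as follows. Within groups Selp was closest to Col1a2 (0.643) and Vcan (0.642), both matrix genes of mesenchymal cells, and Ackr1 to Slc20a2 (0.614) and the smooth muscle actin gene Acta2 (0.590). Sele was next closest to Steap4 (0.453) within groups and to Thop1 (0.915) over group means, and Selp to Arfgap3 (0.919). Over group means Ackr1 was closest to Orm1 (0.970), an acute-phase gene, and Npl (0.966), and Icam1 to Pik3c2a (0.952) and Pgs1 (0.950).

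**Figure D5:**
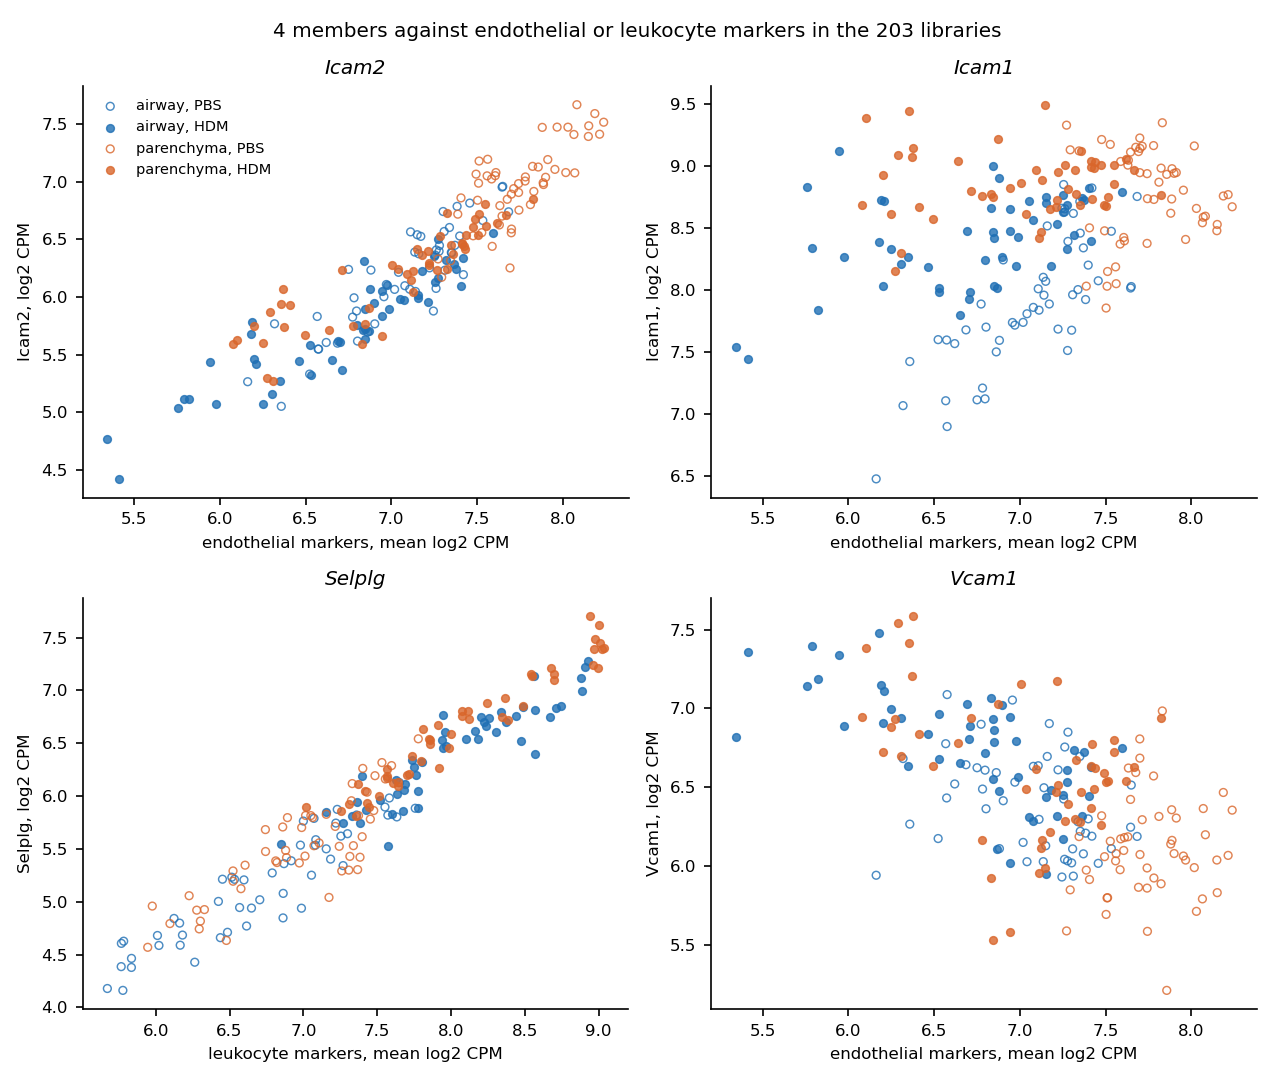
Icam2, Icam1 and Vcam1 against the mean of 10 endothelial markers, and Selplg against the mean of 5 leukocyte markers, in all libraries (log2 CPM on all axes), with airway libraries in blue, parenchyma libraries in orange and filled points for HDM-exposed mice. Icam2 followed the endothelial markers (r of 0.895 within groups) and Selplg the leukocyte markers (0.816 within groups), whereas Vcam1 had an r of -0.034 with the endothelial markers within groups.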

How the data were processed

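RNA was extracted from dissected airways and parenchyma and sequenced as single 100-base reads. The authors ran the ENCODE RNA-seq pipeline on mm10 with annotation M21, and the submitters' processing notes name STAR 2.5.1b, RSEM 1.2.31, kallisto 0.44.0 and bcl2fastq 2.20.0.422. The deposited table holds estimated counts per gene, of which 20.3% of the nonzero values were not whole, so they were rounded. Which quantifier made it, and whether counting used strand, is not given in the sources used here. Of 43346 identifiers, 42462 matched a mouse symbol. No pair of libraries within a group was as alike as sampling noise (lowest chi-square per gene 8.09 over 931 pairs).

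A gene was kept where 9 or more libraries reached the CPM that 10 counts give in a library of median size. limma-voom (limma 3.58.1, edgeR 4.0.16, R 4.3.3) was fitted with TMM factors and one mean per group, separately at 3 weeks, at 11 weeks and, for the comparison of weeks, on all libraries, with Benjamini-Hochberg adjustment over all genes tested. Each gene had a single residual variance per fit, shared by both tissues, so an SE may not match the spread within a tissue. The 44 contrasts gave 308 results for the 7 genes, of which 146 passed, beside 28.7% of the results of all genes. The fit was tested on simulated data, where 87 of 98 genes changed by 1 on the log2 scale were recovered for HDM against PBS in the airways at 3 weeks, with 9 false calls among 17064 genes. The most false calls were 14 among 16379 genes, in the parenchyma at 3 weeks. The simulation gave every gene the same dispersion, changed a small set of genes and fitted only the groups compared. It therefore does not show the error rate where many genes change. Alternatives were DESeq2 1.42.0 and its size factors, the edgeR quasi-likelihood test, other filters, other sets of samples, sample quality weights, a minimum fold and the mean of endothelial markers as a covariate. The named genes were the 7 members in every comparison, the list genes with the largest rise and fall (one of which is not reported here), genes of the partner lists and the 2 genes most like each member. The members and lists were chosen with earlier results of these data known. Intervals of counts cover counting error only.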

Additional observations from a re-analysis of the deposited data

Results flagged for a closer look

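Over the 7 genes in the 18 groups of 10 libraries, 16 combinations of gene and group had a highest or lowest library set apart from the others by a gap above Dixon's 95% critical value for 10 samples (0.466 of the range), where chance flags about 1 in 20 if values are normally distributed. The rule was applied to CPM without logs, where skewed values can be flagged more often, so the count does not show an excess. Libraries X109 and X116 were set apart for more than one gene. X109 of the airway HDM.AIR group was high in Icam1 (512 CPM, group median 308 CPM) and Selplg (140.5 CPM, median 107.7 CPM), and X116 of the parenchyma PBS.CS.DEX group was high in Selp (27.3 CPM, median 7.47 CPM) and Ackr1 (6.71 CPM, median 2.19 CPM).

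In the parenchyma the other libraries set apart were X160 for Icam1 (722 CPM, median 511 CPM, HDM.CS.DEX), X86 for Icam2 (135.02 CPM, median 177.8 CPM, PBS.AIR), X176 for Icam2 (135.3 CPM, median 89.6 CPM, PBS.CS.DEX) and X92 for Sele (2.23 CPM, median 0.739 CPM, HDM.AIR.DEX). X98 was high in Sele (2.18 CPM, median 1.12 CPM, HDM.CS), X72 in Selplg (111.9 CPM, median 73.5 CPM, HDM.AIR.DEX) and X126 in Ackr1 (1.44 CPM, median 0.375 CPM, PBS.AIR). In the airways they were X145 for Sele (3.62 CPM, median 1.204 CPM, PBS.AIR), X131 for Selp (13.2 CPM, median 6.56 CPM, HDM.AIR.DEX) and X115 for Selp (21.3 CPM, median 9.12 CPM, PBS.CS.DEX). X75 was high in Selplg (42.3 CPM, median 25.6 CPM, PBS.CS.DEX) and X93 low in Ackr1 (1.82 CPM, median 4.70 CPM, PBS.CS).

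Of 56 tests of a difference between effects by limma-voom, 25 passed, beside 23.6% of the results of all genes in the same 8 contrasts. The HDM effect differed between airways and parenchyma at 3 weeks for Selplg (-0.51) and Ackr1 (-1.72), and at 11 weeks in air for Icam1 (0.62), Icam2 (0.65), Sele (-1.69), Selp (-1.17) and Ackr1 (-1.75). It differed between smoke and air in the airways for Vcam1 (-0.60), Icam1 (-0.59), Icam2 (0.63), Selplg (-0.72) and Ackr1 (-0.99). In the parenchyma it differed between smoke and air for Vcam1 (-0.63), Icam2 (1.18), Sele (-1.73), Selp (-1.45), Selplg (-0.94) and Ackr1 (-2.18). It was smaller with dexamethasone in the parenchyma for Sele (-1.66) and Selp (-1.30). Between 3 and 11 weeks it differed in the airways for Sele (-1.59) and Selp (-0.98), and in the parenchyma for Vcam1 (-0.44), Icam1 (-0.56) and Selplg (-0.57). All values are differences of log2FC.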

How the results depend on the processing

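Over 11 alternatives, 3137 values for single genes stayed on their side of the threshold (with the same direction where they had passed), 84 lost and 53 gained a call, and 12 changed direction. All 12 used the endothelial markers as a covariate. For Icam2 they were 0.11 and 0.01 (HDM at 3 weeks, airways and parenchyma), -0.13 and -0.07 (smoke in HDM mice), -0.22 (dexamethasone in HDM mice in air, airways), 0.05 and 0.03 (tissue difference in PBS.AIR and PBS.CS mice), -0.11 (tissue difference of the HDM effect at 11 weeks) and -0.32 (week, airways). For Icam1 they were 0.54 (HDM with dexamethasone in air, parenchyma), -0.45 (smoke in HDM mice, parenchyma) and -0.43 (week, airways). With that covariate the counts of passed results also moved. For HDM at 3 weeks 7 were higher and 0 lower by limma-voom, for tissue 10 were higher and 5 lower, and 0 interactions were positive. It left 1 lower for HDM at 11 weeks, 5 lower for smoke, 2 higher for dexamethasone and 8 lower between weeks. A filter of 10 CPM in 9 libraries removed Sele and Ackr1 and left 7 higher between tissues, 8 negative interactions and 12 higher with smoke. A minimum log2FC of 1 left 9 higher and 2 lower between tissues, 12 higher and 1 lower for HDM at 11 weeks, 11 higher and 0 lower with smoke, and 0 higher and 2 lower with dexamethasone, where the shares of all results past that rule were 8.41% and 0.908%, 6.83% and 3.54%, 2.67% in either direction, and 0.468% and 2.87%. With only the groups compared, 5 were lower with smoke and 2 higher with dexamethasone, and with quality weights 3 were higher. Shares of all genes stand beside the minimum log2FC only, so the other counts do not show whether all genes moved too. The cause of these changes was not tested, except that fewer genes were tested under the stricter filter. Leaving out library X32 was chosen after seeing the data. Low counts limit Sele and Ackr1 in PBS parenchyma. No paired analysis was possible because the library numbers are unique and the labels tie no samples across groups, so tests between tissues take no account of mice that may have given both.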
